A study of Mus musculus with 18 samples.

Results

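The 3′F mouse carries a miR-146a that keeps the seed of the natural microRNA and has a different sequence toward its 3′ end, and the comparison described here is that of 3′F with wild-type (WT) macrophages, gene by gene. The members were chosen by their labels: the 12 libraries of the 3′F and WT genotypes, of 18 in the series, in 4 groups of 3 (3′F resting, WT resting, 3′F LPS and WT LPS). All 21734 protein-coding genes of the count table entered, and 11221 of them had enough counts to be tested. Bone marrow-derived macrophages (BMDMs) were grown for 8 to 9 days in 10 ng/ml M-CSF from the marrow of mice that were 6 to 7 months old and of mixed 129 and B6 background, with 3 mice per genotype. Cultures then received either fresh medium alone (resting) or fresh medium with LPS at 1 ng/ml for 16 h. In the 3′F allele, described in the labels as a non-seed swap, the 3′ part of the miR-146a duplex was exchanged with that of its opposite strand, in the germ line and so in every cell type. The remaining genotype, a knockout (KO) of miR-146a, enters only as values side by side. Because 3 mice gave both the resting and the LPS libraries of a genotype, the 6 libraries of a genotype are not 6 animals. The table holds no microRNA level, so the allele itself was not checked in these libraries, and the miRNA encoded by the allele was not measured here.

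MicroRNAs guide Argonaute proteins to messenger RNAs, mostly by pairing of the seed (bases 2 to 8) with sites in 3′ UTRs, and the paired mRNAs are repressed. Bases further toward the 3′ end can add pairing at some sites. In macrophages, LPS is sensed by the receptor TLR4, and NF-κB then induces both inflammatory genes and miR-146a. IRAK1 and TRAF6, a kinase and a ubiquitin ligase that carry the TLR4 signal to NF-κB, are the classic targets of miR-146a, which forms with them a negative feedback loop.

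The sequences are shown because the comparison rests on what the allele keeps and what it changes. The mature miR-146a-5p lies on chromosome 11 (chr11:43374435-43374456, minus strand, GRCm38) and its paralog miR-146b-5p on chromosome 19 (chr19:46342790-46342811, plus strand), both from RefSeq, and the 3′F sequence is that of the study's synthetic guide, which has 20 bases. The capitals mark the seed.
miR-146a-5p: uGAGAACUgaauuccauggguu
miR-146b-5p: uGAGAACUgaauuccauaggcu
3′F guide: uGAGAACUgaauaagugucc
All 3 share the seed GAGAACU and the bases up to position 12, counted from 1 at the 5′ end. From the WT to the 3′F sequence each of the 8 bases from position 13 on differs (U13A, C14A, C15G, A16U, U17G, G18U, G19C and G20C). From miR-146a to miR-146b the differences are G18A and U21C.

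The resting comparison asked whether the altered 3′ region changed mRNA levels without a stimulus, the LPS comparison asked the same after 16 h of stimulation, and the both-states comparison took genotype with state as a covariate. No gene passed an adjusted p of 0.05 at rest or after LPS (edgeR quasi-likelihood test with Benjamini-Hochberg adjustment over 11221 genes), which is 0% of genes in each state. With both states together 1 gene passed, which is 0.00891% of the genes tested. At an unadjusted p under 0.05 there were 405 genes at rest (3.61%), 108 after LPS (0.962%) and 253 over both states (2.25%). DESeq2 called 1 gene at rest, 1 after LPS (0.00891% each) and 5 over both states (0.0446%), and limma voom called 0, 0 and 2 (0.0178%). Over both states the DESeq2 genes included 9030617O03Rik, Ednrb, Galc and Ptpn21, and those of limma voom Ednrb. A test that is not passed does not show that genotypes are alike, so for each gene the interval of the difference was used to ask how large a difference the data still allow.

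The typical gene differed little between 3′F and WT. The median size of the difference, on the log2 scale and irrespective of sign, was 0.14 at rest, 0.08 after LPS and 0.07 over both states, and the median signed difference was −0.00, −0.01 and −0.00. Of all genes, 90% lay between −0.37 and 0.49 at rest, between −0.32 and 0.25 after LPS and between −0.24 and 0.27 over both states. The median standard error was 0.17 in each state and 0.12 over both. For comparison, LPS itself moved the median gene by 0.28 in WT and 0.34 in 3′F cells, and 1477 (13.2%) and 1590 genes (14.2%) by more than 2-fold. The 3′F values include resting replicate 3, a library that stood apart from its group mates, as described below.

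**Figure D1:**
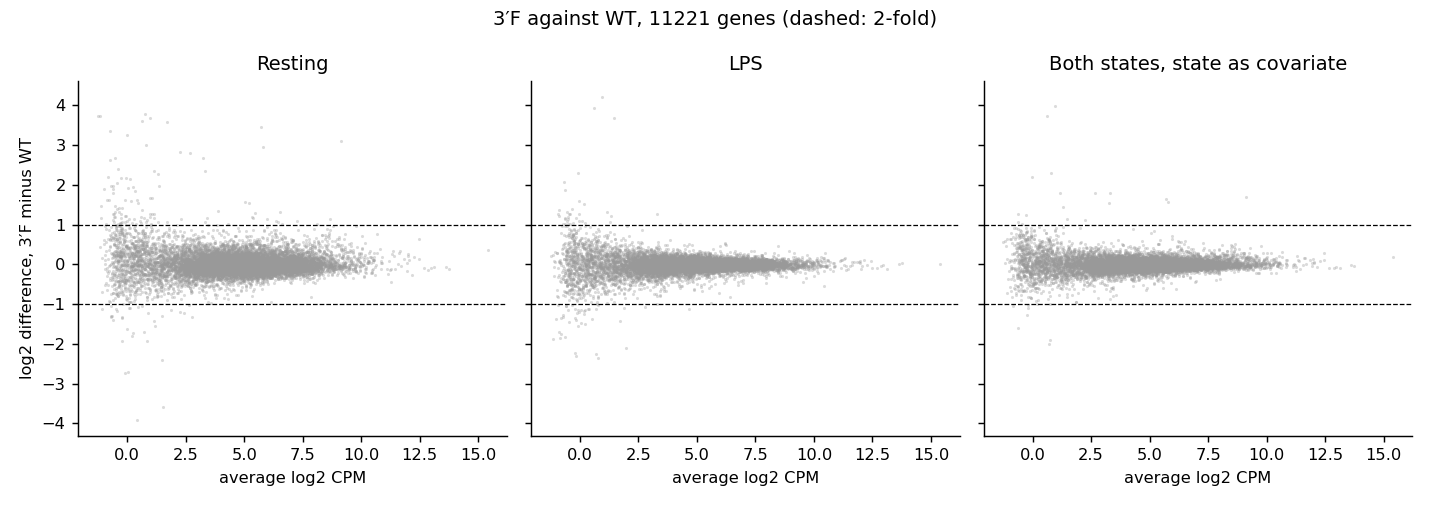
Difference between 3′F and WT (log2, y axis) of each of 11221 genes against its mean level (log2 CPM, the count scaled by library size, x axis), at rest, after LPS and over both states. The cloud narrows with level, and 90% of genes lie between −0.24 and 0.27 over both states.

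A 2-fold difference in either direction was excluded for 9768 genes at rest (87.1%), 10166 after LPS (90.6%) and 10735 over both states (95.7%). Excluded here means that 2 one-sided tests, against a log2 difference of −1 and of +1, both passed after Benjamini-Hochberg adjustment over all genes. This is looser than a 95% interval inside 2-fold. Such an interval was found for 9419 genes at rest (83.9%), 9850 after LPS (87.8%) and 10531 over both states (93.9%). A 1.5-fold difference was excluded for 6580 (58.6%), 7935 (70.7%) and 9352 genes (83.3%). The bound, the larger end of a gene's 95% interval turned into a fold, had a median of 1.45-fold at rest, 1.38-fold after LPS and 1.27-fold over both states, and for 95% of genes it was below 3.06, 2.77 and 2.1-fold. The fit over both states took the 6 libraries of a genotype as separate. With the resting and LPS libraries of the same replicate number summed, a 2-fold difference was excluded for 10629 genes (94.7%), with a median bound of 1.27-fold. Held at once over all genes (Bonferroni intervals), a 2-fold difference was excluded for 1779, 2094 and 5762 genes, and a 4-fold difference for 7864 (70.1%), 8235 (73.4%) and 9729 (86.7%).

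How much could be excluded depended on the level of the gene. Of the 413 genes below 0 log2 CPM, a 2-fold difference was excluded for 6.05% at rest, 7.02% after LPS and 44.1% over both states. Between 0 and 2 log2 CPM (1123 genes) the shares were 49.3%, 55.9% and 84.6%. In the 4026 genes between 4 and 6 log2 CPM they were 96.1%, 98.8% and 99.4%. The 661 genes at 8 and over had 93.3% at rest and 99.5% over both states, so the least certain part of the table was its low end. Fitted differences beyond 2-fold were found for 140 genes at rest (106 higher and 34 lower in 3′F), 78 after LPS and 26 over both states. Of these, 94, 67 and 15 lay under 1 log2 CPM, and the 95% interval included no difference in 96, 52 and 13.

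**Figure D2:**
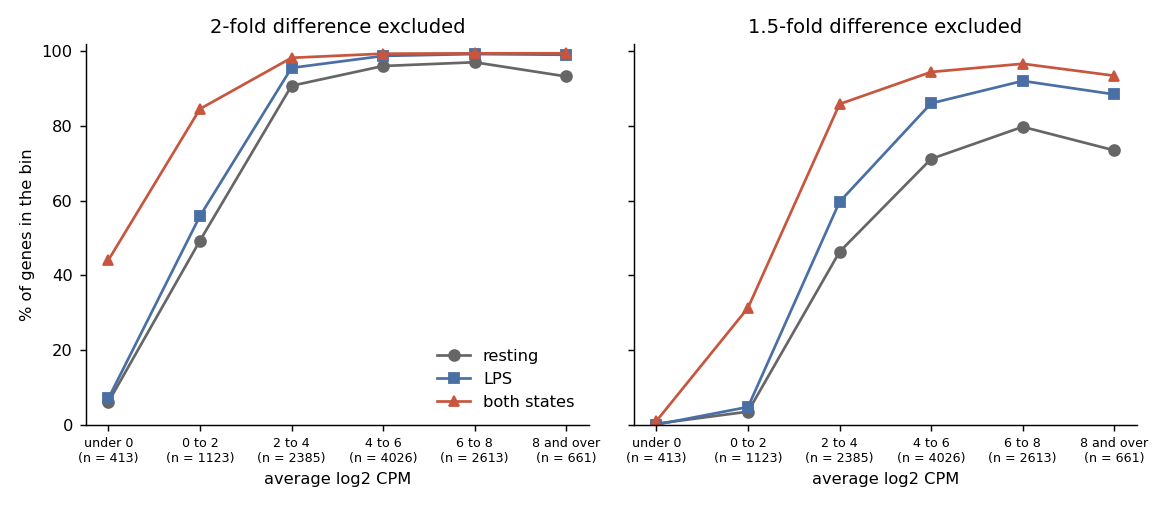
Share of genes (%, y axis) for which a 2-fold (left) or 1.5-fold (right) difference between 3′F and WT was excluded, by mean level of the gene (log2 CPM, x axis), in each comparison. For a 2-fold difference the share rises from 6.05% at rest for the lowest genes to over 90% from 2 log2 CPM upward, in all 3 comparisons.

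The libraries held between 4.07 and 19.8 M counts. The shallowest, 3′F resting replicate 3, stood apart: 0.451% of its counts lay in genes too low to be tested, against 0.0363% to 0.0488% in the other 11 libraries, and 13.2% of genes differed by more than 2-fold from its group mates, against 1.35% to 3.42%. Of 12 macrophage markers listed, Itgam was not in the count table. The other 11 were present in every library, at a summed level of 36875 to 69188 CPM. The summed level of T and NK cell markers was at most 1.91 CPM (Cd3e was at 0 throughout), of B cell markers at most 2.87, of dendritic cell markers at most 6.45, of fibroblast markers at most 6.28 and of erythroid markers at most 2.87 CPM, and that of neutrophil markers ran from 40.9 to 98.0 CPM. The 4 Y-linked genes were present in every library, with a 2-fold difference excluded for 4 of 4 in each comparison, and fewer cells of a type cannot be told apart from less RNA per cell in these bulk cultures.

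Without that library the resting comparison still had 0 called genes (edgeR), with 397 at an unadjusted p under 0.05, and a 2-fold difference was excluded for 10035 of 11308 genes (88.7%), with a median bound of 1.34-fold. The 1.5-fold share rose to 72.2%. The following genes were chosen after their values were seen. Among genes with a mean level over the 12 libraries of 2 log2 CPM or more, 29 differed by over 2-fold at rest. Of these, 25 were higher in 3′F, and in 25 of the 29 replicate 3 lay beyond all other resting libraries. Rpl39, a ribosomal protein gene, had 362, 275 and 336 CPM in WT resting cells and 302, 330 and 1530 in 3′F. Its difference of +1.15 became −0.04 without replicate 3. Gm10800 had 87.8, 226 and 207 CPM in WT and 292, 120 and 4023 in 3′F, and its +3.09 became +0.25. Without the library 6 of the 29 still differed by over 2-fold (Atn1, Zeb1, Gm4951, Slfn1, Cfb and Gm10722). Zeb1, Gm4951, Slfn1 and Cfb reached the level through their LPS libraries and had at most 1.20 CPM at rest. Cfb had 0, 0 and 0.306 CPM in WT and 0.0591, 0 and 0 in 3′F. With all resting libraries the unadjusted p of these low genes ran from 0.0657 (Zeb1) to 0.537 (Gm4951, edgeR). That of Atn1 was 0.00138 and that of Gm10722 was 0.00485, each with an adjusted p of 0.853 (edgeR). Atn1 differed by −1.23, or −1.07 without replicate 3, and Gm10722 by +2.81, or +1.58 without it.

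Among genes of chromosome 12, 19 of 376 tested had an unadjusted p under 0.05 over both states (5.05%), against 2.25% of all genes and 0.974% to 3.36% on the other autosomes, a comparison chosen after its values were seen. The share was uneven along the chromosome. It was 6 of 35 tested genes in the stretch from Galc to Ifi27l2a, and 12 of 312 in the parts farthest from that stretch. Galc, Ptpn21 and 9030617O03Rik, described next, all lie in the stretch, which was also chosen after its values were seen. 9030617O03Rik, on chromosome 12, had 12, 17.9 and 14.2 CPM in WT and 21.1, 29.8 and 23.9 in 3′F at rest. After LPS the values were 13.3, 14.2 and 11.1 against 19.1, 31.1 and 27.3 CPM, again without overlap. It differed by +0.89 ± 0.15 over both states (adjusted p = 0.193, edgeR). Galc, the lysosomal galactosylceramidase (chr12:98202294-98259459, minus strand), had 188, 163 and 192 CPM in WT and 155, 137 and 107 in 3′F at rest. In LPS-treated cells it had 112, 103 and 101 against 75.4, 76.8 and 76.3 CPM. The 3′F libraries were the lower ones in each state, by −0.46 ± 0.09 over both (adjusted p = 0.347, edgeR). Ptpn21, a tyrosine phosphatase gene (chr12:98676741-98737405, minus strand), had 14.7, 18 and 20 CPM in WT and 11.9, 8.44 and 5.98 in 3′F at rest. With LPS it had 10, 10.4 and 8.86 against 7.04, 4.46 and 7.29 CPM, also without overlap, and differed by −0.81 ± 0.17 (adjusted p = 0.542, edgeR). In a fit of all 18 libraries 9030617O03Rik had an adjusted p of 0.0213 (edgeR), and in DESeq2 the adjusted p-values of Galc and Ptpn21 were 0.000680 and 0.00675. Like the fits above, these took the 6 libraries of a genotype as separate. The same genes in the KO, against the same WT libraries, differed at rest and after LPS by +1.18 and +1.18 (9030617O03Rik), −0.58 and −0.62 (Galc) and −1.27 and −0.97 (Ptpn21).

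Further genes with the smallest p-values and no overlap at rest did not pass either. Ednrb, the endothelin B receptor, had 6.11, 6.47 and 3.98 CPM in WT and 2.54, 3.32 and 2.39 in 3′F at rest, and 23.0, 23.1 and 24.1 against 13.2, 14.0 and 17.6 after LPS. It was lower than WT in both states without overlap, by −0.78 ± 0.13 over both states (interval −1.07 to −0.49, adjusted p = 0.214, edgeR), and passed in DESeq2 (adjusted p = 0.000252) and limma voom (0.0211). Both of these fits, too, took the 6 libraries of a genotype as separate. Frat1, which encodes a GSK-3-binding protein of Wnt signalling, had 8.82, 7.64 and 6.63 CPM in WT and 4.85, 4.82 and 4.30 in 3′F at rest, a difference of −0.71, and −0.52 after LPS. Dok2, an adaptor of receptor signalling, had 112, 83.3 and 97.8 against 135, 137 and 144 CPM at rest (+0.51), yet −0.02 after LPS. Spsb4 (+0.67 at rest, +0.21 after LPS), the tubulin gene Tubb2a (+0.33 and −0.10) and Atn1, a transcriptional corepressor gene (−1.23 and +0.17), likewise had a smaller difference after LPS. Dok2, Spsb4, Tubb2a and Atn1 were chosen by their resting values, so a smaller value after LPS does not show a change with state. The interaction of genotype and LPS called 0 genes (edgeR).

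After LPS the genes named by the same rule, beside those already given, were Amot, Lgalsl and Ctdsp2 (higher) and Fam69a and Rad54l (lower). Amot, which encodes angiomotin, had 0.919, 1.18 and 0.670 CPM in WT and 2.15, 2.20 and 2.08 in 3′F after LPS. Its difference was +1.21 (interval 0.61 to 1.8), and at rest it was −0.26 with overlapping libraries. Lgalsl, a galectin-like gene, was higher without overlap in both states (+0.69 and +0.74), at 1.36 to 1.94 CPM in WT and 2.15 to 2.89 in 3′F resting cells. Rad54l, of homologous recombination repair, had 5.23, 7.77 and 6.77 against 4.74, 3.42 and 4.68 CPM after LPS (−0.64), and Fam69a had 15.3, 19.5 and 18.5 against 11.3, 12.2 and 14.3 (−0.50). The adjusted p-values of these 5 after LPS stood at 1 (edgeR). Over both states Folr2, a macrophage folate receptor (+0.41), Eif5b, a translation initiation factor (−0.30), Ropn1l (−0.72) and Ndnf (+0.78), named after their values were seen, did not overlap in either state and did not pass. In an exact permutation test of the means per replicate number, each of them had p = 0.1. So did 9030617O03Rik, Galc, Ptpn21, Ednrb, Frat1 and Lgalsl. That is the smallest value possible with 3 against 3. How many of all genes had no overlap is not given here.

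**Figure D3:**
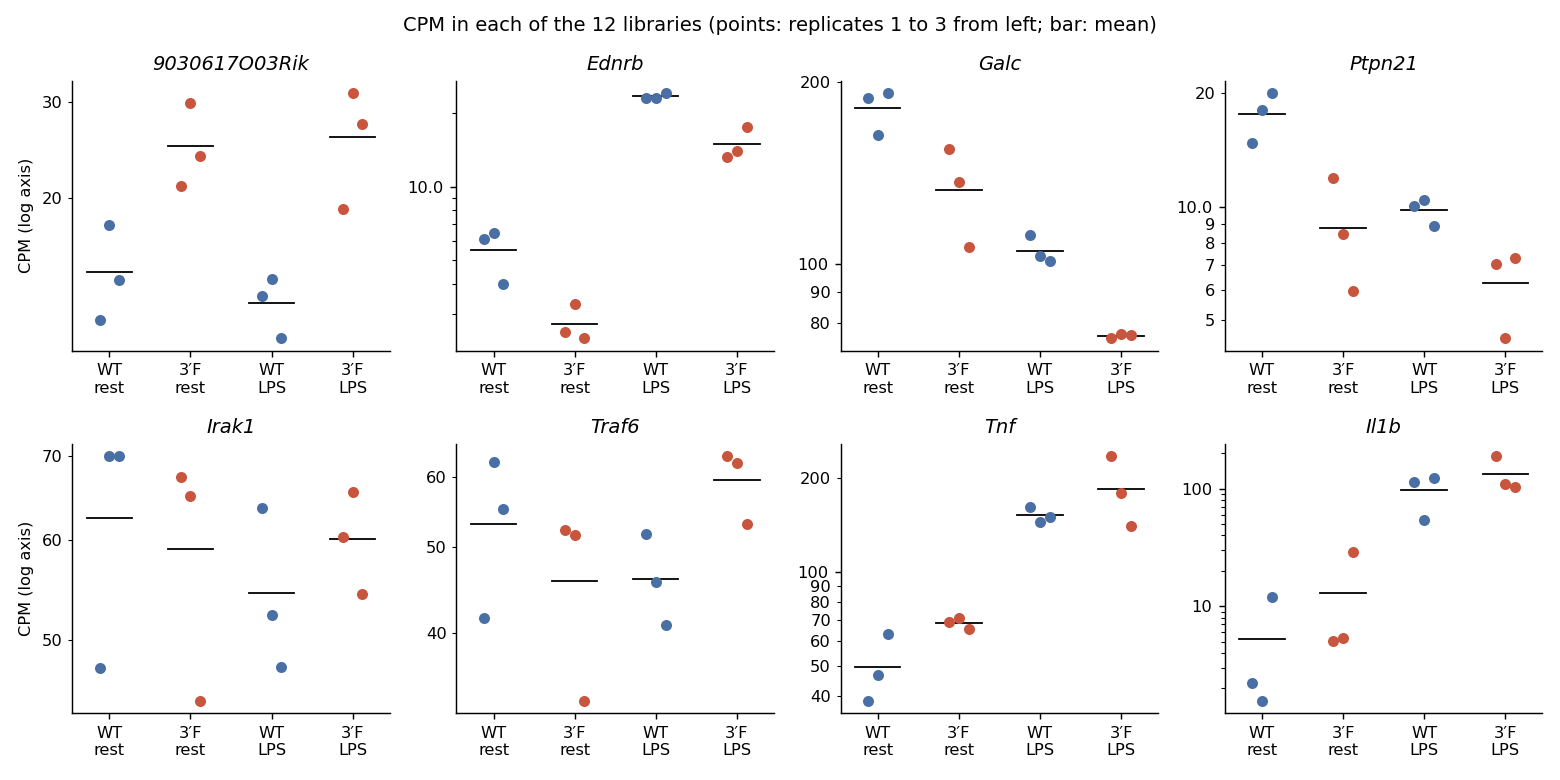
Level (CPM, log-scaled y axis) of 9030617O03Rik, Ednrb, Galc, Ptpn21, Irak1, Traf6, Tnf and Il1b in each of the 12 libraries (points), by genotype and state (x axis), with group means (horizontal lines). WT and 3′F points are separate in both states for 9030617O03Rik, Ednrb, Galc and Ptpn21 and are intermixed for Irak1.

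The difference between the states' contrasts (the interaction of genotype and LPS) was past the threshold for no gene by edgeR (smallest adjusted p 0.956, 150 genes at an unadjusted p under 0.05) and for 0 genes by DESeq2 and limma voom. A 2-fold difference of differences was excluded for 8395 genes (74.8%), and a 1.5-fold one for 2421 (21.6%), with a median bound of 1.66-fold, so this question was bounded less tightly than the others. The genes with the smallest p, named after their values were seen, were Ctdsp2, a small phosphatase gene, at −0.59 at rest and +0.54 after LPS, Amot, and Serpinb6b, a protease inhibitor gene, at +0.44 and −0.46.

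Irak1 and Traf6, the central miR-146a targets, carry seed sites that the allele leaves intact. Seed matches were searched in the longest annotated 3′ UTR as the letters AGTTCTCA (8mer), AGTTCTC (7mer-m8) and GTTCTCA (7mer-A1), on the strand of the mRNA, and these are nested, an 8mer holding both others. Of 21021 UTRs, 4.07% hold the 8mer, 11.2% AGTTCTC, 12.4% GTTCTCA and 18.2% at least 1 of them. Traf6 holds 4 8mers, and Irak1 holds 2 8mers and a 7mer-A1. The sites are shown on GRCm38, 5′ to 3′ along the mRNA, with the seed match in capitals.
Traf6, chr2:101697944-101697966, plus: accgctctggtgttgAGTTCTCA
Traf6, chr2:101698008-101698030, plus: tccctggaaggcttaAGTTCTCA
Traf6, chr2:101698820-101698842, plus: agtactttggagtctAGTTCTCA
Traf6, chr2:101701344-101701366, plus: ggactttgctactgcAGTTCTCA
Irak1, chrX:74015393-74015415, minus: agactcagaggtcaaAGTTCTCA
Irak1, chrX:74015377-74015399, minus: gttctcatgcttggaAGTTCTCA
Irak1, chrX:74015287-74015309, minus: ggcagtggaccctgctGTTCTCA
Uninterrupted pairing of the bases upstream of the seed match with positions 13 to 20 was then sought. Only A-U and G-C pairs were counted, with the target shifted by at most 2 bases either way. The longest run was 4 pairs for the WT sequence at the third Traf6 site, 2 for the 3′F sequence there, and 2 or 3 with either at the other Traf6 sites. At the first Irak1 site it was 2 for both, at the next 4 for WT and 3 for 3′F, and at the last 4 for WT and 2 for 3′F.

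Irak1 (ENSMUSG00000031392, chrX:74013914-74023918) had 47.5, 69.9 and 69.9 CPM in WT and 67.3, 65.0 and 44.7 in 3′F at rest. In LPS-treated cells the values were 63.6, 52.3 and 47.6 against 60.3, 65.5 and 54.4 CPM. The libraries overlapped in both states. The difference was −0.07 at rest (−0.23 to +0.09 with 1 library left out), +0.14 after LPS and +0.04 over both (interval −0.24 to 0.32), so that over both states a difference beyond 1.25-fold lay outside its interval. Traf6 (ENSMUSG00000027164, chr2:101678429-101701669) had 41.6, 62.5 and 55.2 CPM in WT and 52.3, 51.6 and 33.5 in 3′F at rest, with overlap. After LPS it had 51.7, 45.7 and 40.8 in WT and 63.4, 62.2 and 53.1 CPM in 3′F, without overlap. The LPS difference was +0.37 ± 0.18 (interval −0.03 to 0.77, adjusted p = 1, edgeR), against −0.20 at rest (−0.35 to −0.03 with 1 library left out), and over both states the bound was 1.33-fold.

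Over the list of 15 established miR-146a targets, 14 were tested, 0 were called, and a 2-fold difference was excluded for 13 in each of the 3 comparisons. The list's median difference was −0.04, −0.02 and +0.01, beside −0.00, −0.01 and −0.00 over all genes. The exception was Ptgs2, the inducible cyclooxygenase, at 0.475, 1.79 and 3.98 CPM in WT and 4.26, 3.26 and 6.45 in 3′F resting cells. Its bound was 6.30-fold at rest and 2.66-fold over both states, and after LPS its values of 10.5, 4.58 and 4.69 against 11.3, 2.76 and 4.03 CPM overlapped. Cxcr4, a chemokine receptor, differed by −0.16 over both states (bound 1.32-fold), and Sort1, the sorting receptor sortilin, by −0.16 (1.42-fold). Camk2d, a calcium-dependent kinase gene and among the most abundant of the list, differed by +0.02 (1.20-fold). The 16 genes that the study had tested in reporter assays, 14 of which were tested here, ranged from −0.19 to +0.14 over both states. None was called, and a 2-fold difference was excluded for 14. They ranged from −0.30 to +0.62 at rest (2-fold excluded for 13) and from −0.39 to +0.24 after LPS (14). Gemin6 was the highest at rest (bound 2.17-fold) and the lowest after LPS. Its interaction of genotype and LPS was −1.01 (bound 3.31-fold). For the interaction a 2-fold difference was excluded for 9 of 14. Has1 and Krt14 were too low, with at most 5 and 3 counts.

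**Figure D4:**
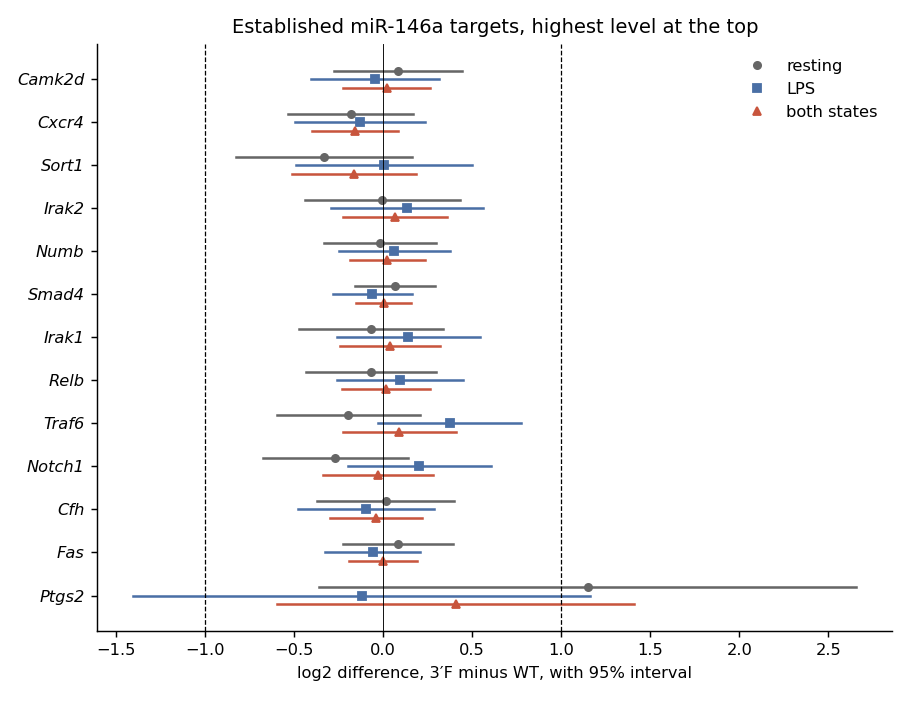
Difference between 3′F and WT (log2, x axis, bars 95% intervals) of 13 of the 14 tested members of the list of established miR-146a targets, at rest, after LPS and over both states. The intervals of 12 stay inside the 2-fold margins over both states, and that of Ptgs2 runs from −0.59 to 1.41.

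Genes with a seed match had median differences close to 0. Of the tested genes 2305 had an 8mer or 7mer site, and their median difference was −0.03 at rest, −0.00 after LPS and −0.01 over both states, beside 0.01, −0.02 and −0.00 in the 7387 genes without even the 6-base core GTTCTC. Among them 0 were called, and 55 of 2305 had an unadjusted p under 0.05 over both states. Genes were then split by whether 4 or more contiguous pairs with positions 13 to 20 were possible, counted as for Irak1 and Traf6. The 278 genes with such pairing to the WT sequence alone had medians of −0.01, −0.01 and −0.00, and the middle 50% lay between −0.07 and 0.07 over both states. The 198 genes with such pairing to the 3′F sequence alone had −0.03, 0.00 and −0.01, and a middle 50% between −0.08 and 0.04. For 96.4% and 97% of these genes a 2-fold difference was excluded over both states, beside 95.7% of all genes. These classes are descriptions of letters in UTRs, and no site was shown to be bound.

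Genes of TLR4 and NF-κB signalling were tightly bounded over both states. All 28 were tested, 0 were called, and a 2-fold difference was excluded for 28 of 28 at rest, after LPS and over both states. A 1.5-fold one was excluded for 19, 23 and 28, beside 58.6%, 70.7% and 83.3% of all genes. The widest bound was 1.93-fold at rest (Ticam2) and 1.71-fold after LPS (Traf6). For the interaction a 2-fold difference was excluded for 24 and a 1.5-fold one for 5, beside 74.8% and 21.6% of all genes. The list's median was +0.01 at rest, +0.07 after LPS and +0.03 over both. Nfkbie and Nfkbia, inhibitors that hold NF-κB in the cytoplasm, differed by +0.30 (bound 1.45-fold) and +0.23 (1.37-fold) over both states, and Tnfaip3, a deubiquitinase that shuts the pathway down, by +0.20 (1.39-fold). Nfkbia had 165, 132 and 198 CPM in WT and 194, 203 and 225 in 3′F at rest, and 421, 365 and 383 against 500, 405 and 376 after LPS, with overlap in both states.

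Inflammatory cytokines and chemokines, the outputs of the pathway, were less tightly bounded. Of 30 genes, 24 were tested and 0 called, and a 2-fold difference was excluded for 8 at rest, 13 after LPS and 17 over both states. The median difference was +0.34 at rest, −0.01 after LPS and +0.01 over both. With 1 library left out the resting median ran from +0.15 (without 3′F resting replicate 3) to +0.70 (without WT resting replicate 3), the LPS median from −0.17 (without 3′F LPS replicate 1) to +0.29 (without WT LPS replicate 3), and that over both states from −0.05 to +0.36 (without the same libraries). Tnf had 38.6, 46.9 and 63.6 CPM in WT and 69.4, 71.3 and 65.7 in 3′F at rest, without overlap, and 161, 145 and 150 against 235, 180 and 140 after LPS, with overlap. It differed by +0.48, +0.29 and, over both states, +0.38 (interval 0.09 to 0.66, adjusted p = 1, edgeR). Cxcl2, a neutrophil-attracting chemokine, had 38.5, 29.8 and 62.0 against 85.7, 71.7 and 93.7 CPM at rest, without overlap, and differed by +0.95 there and +0.64 over both states (adjusted p = 1, edgeR).

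Il1b, the interleukin-1β gene, had 2.24, 1.56 and 11.9 CPM in WT and 5.09, 5.36 and 28.7 in 3′F at rest, with replicate 3 of each genotype the highest. After LPS it had 114, 54.3 and 124 against 189, 109 and 103 CPM. The groups overlapped in both states, the resting difference of +1.14 was +0.11 without 3′F resting replicate 3 and +2.52 without WT resting replicate 3, and over both states the difference was +0.72 with a bound of 3.43-fold, so that a 2-fold difference was not excluded. Lcn2, an iron-sequestering protein gene, differed by +0.40 (1.85-fold), and the highly expressed Saa3, an acute-phase protein gene, and Ccl9, a chemokine gene, by +0.11 (1.8-fold) and −0.01 (1.16-fold). Il6 was too low to be tested: its counts were 1, 2 and 0 in WT and 4, 0 and 1 in 3′F at rest, and 6, 4 and 10 against 7, 1 and 3 after LPS. Il12a, Il23a, Csf2, Csf3 and Ccl22 were likewise not tested, with at most 11 counts in any library.

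The interferon response genes, 28 of 28 tested, had 0 called, and a 2-fold difference was excluded for 13 at rest, 19 after LPS and 26 over both states. Their median difference was +0.13, −0.09 and −0.05. Rsad2, an antiviral enzyme gene, had 1162, 470 and 3487 CPM in WT and 1351, 1497 and 905 in 3′F after LPS, so WT replicate 3 was the highest and WT replicate 2 the lowest of the 6. Ifit2, which encodes an antiviral RNA-binding protein, had 2263, 891 and 6449 against 2373, 2520 and 1638 CPM. With 1 library left out the resting median ran from −0.15 (without WT resting replicate 1) to +0.52 (without WT resting replicate 3). The LPS median ran from −0.38 (without WT LPS replicate 2) to +0.40 (without WT LPS replicate 3), and that over both states from −0.21 to +0.31 (without the same libraries), so the sign of each changed with the library left out. Oas2, an RNA sensor gene (+0.32, bound 1.70-fold), and the transcription factor genes Stat2 (−0.17, 1.51-fold) and Irf9 (+0.09, 1.22-fold) had the smallest p over both states.

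Proliferation genes had mostly lower fitted levels in 3′F, and none passed in edgeR. At an unadjusted p under 0.05 there were 4 of 26 at rest and 0 after LPS and over both states. The shares of all genes were 3.61%, 0.962% and 2.25%. Among the 26, the smallest p at rest was that of Pcna, which was higher in 3′F. All 26 were tested, and 18 had a lower fitted level in 3′F at rest and 23 after LPS. The median difference was −0.24, −0.11 and, over both states, −0.20, beside −0.00 over all genes, and a 2-fold difference was excluded for 16, 25 and 26. The widest bound over both states was that of Plk1, at 2.02-fold. The resting median ran from −0.55 (without 3′F resting replicate 3) to −0.13 (without 3′F resting replicate 2), and the LPS median was above 0 without WT LPS replicate 2 (+0.13) or 3′F LPS replicate 2 (+0.13). Mki67, the proliferation marker Ki-67, had 212, 457 and 423 CPM in WT and 239, 180 and 202 in 3′F at rest, where WT replicate 1 lay among the 3′F values. After LPS it had 129, 234 and 153 against 193, 105 and 221 CPM, with overlap, and the difference was −0.81 at rest and +0.01 after LPS. Ccnb2, a mitotic cyclin, had 48.0, 73.1 and 60.1 against 38.8, 25.4 and 41.3 CPM at rest, without overlap (−0.79), and −0.03 after LPS. Rrm2, the small subunit of ribonucleotide reductase, differed by −0.27 (bound 1.51-fold) over both states, and Pcna, the DNA polymerase clamp, was in the other direction, at +0.33 at rest with 354, 329 and 342 against 394, 427 and 468 CPM.

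The genes of proteins that make and use microRNAs were tightly bounded over both states. For all 13 of 13 genes a 2-fold difference was excluded at rest, after LPS and over both states. A 1.5-fold one was excluded for 11, 11 and 13. For the interaction a 2-fold difference was excluded for 12 and a 1.5-fold one for 2. The median difference was −0.09 at rest, +0.08 after LPS and −0.00 over both. Dgcr8 and Drosha, the subunits of the nuclear processing complex, differed by +0.17 and −0.14 over both states, Tarbp2, a partner of Dicer, by +0.15, and the Argonaute genes Ago2 and Ago3 by −0.08 and +0.10, with bounds from 1.27 to 1.33-fold. The reference genes, 13 of 14 tested, had a 2-fold difference excluded in 13, with Actb at −0.03 and Eef1a1 at +0.04. The macrophage markers had 11 of 11, with Lyz2, lysozyme, at +0.18 and Ctss, cathepsin S, at +0.08, and Mertk, a receptor for apoptotic cells, at −0.16. Of the neutrophil markers 6 were tested and a 2-fold difference was excluded for 3 over both states. S100a8, a neutrophil calcium-binding protein gene, had 44.9 CPM in 3′F resting replicate 3, against 6.94 to 17.4 in the other resting libraries, and the resting median of the neutrophil markers was +0.37, or +0.10 without that library.

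Within 5 Mb of the Mir146 gene on chromosome 11, 19 genes were tested and 0 were called. A 2-fold difference was excluded for 15 of them at rest (78.9%), 17 after LPS and 17 over both states (89.5% each), beside 87.1%, 90.6% and 95.7% of all genes. Their median difference was −0.02. Adam19, a membrane protease, had the smallest p, with 10.1, 13 and 8.06 CPM in WT and 8.75, 5.79 and 2.39 in 3′F at rest and 19.1, 11.2 and 13 against 9.56, 7.94 and 3.64 after LPS, where the groups did not overlap. It differed by −0.88 ± 0.26 over both states (adjusted p = 1, edgeR). Ccng1, the cyclin G1 gene, differed by −0.14 (bound 1.24-fold) and Hmmr, a mitotic spindle gene, by −0.29 (1.79-fold). Clint1, of vesicle coating, differed by −0.08 (1.22-fold).

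The 5 genes with the narrowest intervals over both states were Rfx7 (bound 1.08-fold), Mta2 (1.09-fold), Rfwd2 (1.12-fold), Napg (1.13-fold) and Fubp3 (1.13-fold). Mta2, a subunit of the NuRD chromatin complex, had 140, 129 and 132 CPM in WT and 131, 136 and 128 in 3′F at rest, and 131, 136 and 137 against 137, 139 and 132 after LPS. Its difference was −0.00 ± 0.05, with an interval from −0.12 to 0.11. The interval of Rfx7, a transcription factor gene, was wider in the single states (bounds of 1.33 and 1.34-fold), with 15.6, 22.2 and 26 CPM in WT and 20, 18.4 and 23.9 in 3′F at rest.

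The KO was measured against the same WT libraries, so its values are set beside those of 3′F and no overlap between them was computed. In a fit of all 18 libraries and 11357 genes, KO against WT called 1067 genes at rest (9.4%) and 544 after LPS (4.79%). Of these, 1054 and 532 were also tested in the 12 WT and 3′F libraries, and a 2-fold difference between 3′F and WT was excluded for 847 (80.4%) and 488 (91.7%) of them, beside 87.1% and 90.6% of all genes. Of the KO genes called with over 2-fold, 539 and 243, it was excluded for 335 (62.2%) and 201 (82.7%). The median size of the difference over the KO genes was 1.03 and 0.95 in KO, and 0.16 and 0.11 in 3′F, where it was 0.14 and 0.08 over all genes. The KO genes were called with the WT libraries that also enter the 3′F difference.

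Trim12a, a TRIM ubiquitin ligase family gene, had 0 or 1 counts in the 6 KO libraries. In 3′F and WT it overlapped in both states, at 14.7, 12.3 and 13.8 CPM in WT and 11.5, 12.3 and 14.1 in 3′F at rest, and differed by −0.01 over both states (bound 1.21-fold). Trim5, a neighbouring family member, also had 0 or 1 counts in KO and differed by +0.04 in 3′F (1.25-fold). Plekha7, a junction protein gene, had 90 to 193 counts in the KO libraries and 0 to 3 in those of WT and 3′F, too low to be tested. Among genes of the lists above, Rsad2 at rest differed by +5.07 in KO and +0.03 in 3′F, Saa3 by +3.20 and +0.14, and Ccnb2 by −2 and −0.79. Of the targets, Irak1 at rest and after LPS differed by +0.22 and +0.14 in KO and −0.07 and +0.14 in 3′F, and Traf6 by +0.26 and +0.31 in KO and −0.20 and +0.37 in 3′F.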

How the data were processed

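RNA of 18 BMDM cultures was depleted of rRNA, and stranded libraries were sequenced on a NextSeq500. The authors trimmed reads with cutadapt 1.8.3, aligned them to mm10 with HISAT2 2.1.0 and counted them by strand per Gencode M15 gene with featureCounts 1.5.3, and the deposited values are counts of protein-coding genes. Here the 12 WT and 3′F libraries were fitted together with edgeR 4.0.16 (filterByExpr, TMM scaling, quasi-likelihood test, 4 group means, or genotype plus state), with Benjamini-Hochberg adjustment over 11221 genes. Intervals (95%) and the 2 one-sided tests against 2-fold and 1.5-fold came from the same errors. CPM are TMM-scaled, and the fit was tested on simulated data. Depth (4.07 to 19.8 M counts) limits low genes most. The chi-square per degree of freedom between replicates was 7.35 to 64.9, so no library was a copy. Alternatives were scaling, filters, DESeq2, limma voom, blocks, sums per replicate number, all 18 libraries and leaving libraries out.

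Named genes were Irak1, Traf6, Il6, Tnf and Il1b, called genes (or, where none was called, the 4 higher and 4 lower of smallest p with at least 1 log2 CPM and no overlap), in each list the 3 of smallest p and 2 of highest level, the 5 narrowest intervals, and Trim12a, Trim5 and Plekha7. The members, lists and named genes were chosen with earlier results of these data known. Positions are from GENCODE M21 (GRCm38, 11216 of 11221 tested genes found) and 3′ UTRs were found for 11124. The gene called over both states is not reported here.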

Additional observations from a re-analysis of the deposited data

How the results depend on the processing

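At rest 1 gene was called without a filter on low counts, with the replicate number as a block and by DESeq2. After LPS 1 gene was called with all 18 libraries, without a filter, with the replicate block, by DESeq2 and at an adjusted p of 0.1. Over both states 2 genes were called with all 18 libraries, without a filter, with the replicate block and by limma voom, 5 by DESeq2 and 0 with the resting and LPS libraries of the same replicate number summed. Leaving out libraries gave 0 at rest, 0 after LPS and 1 over both states (edgeR), and leaving out both libraries of a replicate number gave 0 to 4 (0 without WT replicate 1 or WT replicate 3, 4 without 3′F replicate 1). The gene called over both states kept its direction. At rest, after LPS and for the interaction the reported fit had 0 calls, so no call could turn there. The cause of these moves was not tested.

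The replicate numbers did not pair WT with 3′F: same-numbered deviations from the group means correlated at −0.31, 0.16 and −0.12 at rest and 0.04, −0.29 and −0.14 after LPS. The labels do not state that a replicate number marks 1 mouse in both states, and its resting and LPS libraries correlated at 0.06, 0.30 and 0.30 in WT and 0.04, 0.30 and 0.11 in 3′F.

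A 2-fold difference was excluded for 8928 to 10035 genes at rest, 9733 to 9831 after LPS and 10380 to 10834 over both states when libraries were left out, and with Bonferroni intervals for 1779, 2094 and 5762. List medians moved by more than the spread between replicates in 7 of 766 values. That of proliferation at rest was −0.70 with limma voom, and over both states it ran from −0.44 to −0.010 with 1 library or a replicate number left out. The cytokines ran from +0.15 to +0.70 at rest and from −0.072 to +0.50 over both states, and the interferon response from −0.15 to +0.52 at rest, from −0.38 to +0.40 after LPS and from −0.26 to +0.43 over both. Limits are 3 mice per genotype, 1 shallow 3′F resting library and cultures of a mouse shared between the states. Over both states a 2-fold difference was not excluded for 486 genes. Many of these had low counts, but not all, and Il1b was among them.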
